A study of Sus scrofa with 2 samples.

Results

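APOA1, APOE, APOD, SCARB1, NPC1, NPC2, ABCA1, ABCG1, PLIN2 and CYP27A1 take part in lipoprotein uptake, lipid storage and cholesterol efflux, and their RNA was counted in the somatic cells of 2 pig antral follicles. The genes were found by symbol in the deposited gene list, which held all 10 among its 22342 genes. Levels were read in barcodes with 2000 to 5000 detected genes and under 7% mitochondrial UMIs (unique molecular identifiers, each of which marks 1 captured RNA molecule). This kept 9362 of the 14289 deposited barcodes of follicle 1 and 7843 of the 15548 of follicle 2, which are called cells here.

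Both follicles were healthy and over 7 mm wide. They came from a pubertal Landrace × Yorkshire pig of 210 days that, per the study's methods, had been given pregnant mare serum gonadotropin, a hormone that makes follicles grow, and no untreated animal was included. The oocytes were taken off, and the somatic cells of each follicle were sequenced as 1 library with the 10x Genomics 3′ assay. With 1 library per follicle no test between follicles could be made and no p-value is given, so a ratio compares these libraries and not conditions.

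The kept cells held 111226504 UMIs in follicle 1 and 108920601 in follicle 2, with medians of 11254.5 and 13902 UMIs per cell. Between the follicles, 18 kept barcodes had the same sequence. The summed level of 7 granulosa markers was 24174 and 25898 CPM (UMIs of a gene per 1000000 UMIs of the cells), 1 of them being at 0 in follicle 1, while 10 leukocyte markers summed to 4.79 and 8.70 CPM, with 0 and 1 of them at 0. Levels are CPM over the cells named, with 95% exact Poisson intervals, and all intervals cover counting error only. The assay counts the 3′ ends of transcripts, so CPM were not divided by gene length.

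Granulosa cells make steroid hormones from cholesterol, much of which they take from lipoproteins of the follicular fluid. High-density lipoprotein, whose main protein is APOA1, gives up its cholesterol esters to the cell surface receptor SCARB1, while low-density lipoprotein is taken in whole and broken down in lysosomes, from which NPC2 and NPC1 hand free cholesterol on. Cholesterol that is not used is esterified and kept in droplets coated by PLIN2, oxidized by the mitochondrial enzyme CYP27A1, or sent out through ABCA1 and ABCG1 to acceptors that include APOA1 and APOE. APOD is a small lipid carrier of the lipocalin family. When sterols are scarce, SREBF2 turns on the enzymes of sterol synthesis through a short promoter element, and when oxidized sterols build up, the LXR receptors NR1H3 and NR1H2 turn on ABCA1 and ABCG1.

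In the Sscrofa11.1 assembly, the RefSeq annotation placed APOA1 (ENSSSCG00000030921) on the minus strand of chromosome 9 at chr9:44216481-44218360, in 4 exons, and SCARB1 (ENSSSCG00000009759) on the plus strand of chromosome 14 at chr14:28301421-28393568, in 13 exons. The lysosomal pair lay at chr6:108403126-108450486 (NPC1, 26 exons) and chr7:97730532-97740087 (NPC2, 4 exons), both on the minus strand. NPC1 overlapped C6H18orf8 on the other strand, and NPC2 began 392 bases from ISCA2. The sources used here do not state whether strand was used in counting, so reads of NPC1 and its partner may not be fully apart. PLIN2 lay at chr1:203683867-203709277 (plus) and ABCA1 at chr1:246144277-246278492 (minus, 51 exons). APOE was at chr6:51373113-51375333 (plus), APOD at chr13:132514546-132562594 (minus), ABCG1 at chr13:205561897-205628428 (plus) and CYP27A1 at chr15:120809886-120852196 (plus).

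The 250 bases before the RefSeq start were searched on both strands for 3 motifs, because the results below set these genes against sterol synthesis. The sterol regulatory element, TCACNCCAC, was in none of the 10 genes' windows. It was in 0.803% of 19559 protein-coding promoters and in 2 of 17 windows of sterol synthesis genes (11.8%), among them that of HMGCS1, which makes the precursor of mevalonate. An LXR direct repeat, made of 2 copies of AGGTCA with 4 bases between them, and a steroidogenic NR5A site, CAAGGTCA, were in 0 of the 10 windows and in 0.0102% and 1.17% of all promoters. No match says only that these letters are not in this window. The windows of the 2 most abundant genes, APOA1 (chr9:44218361-44218610, minus) and SCARB1 (chr14:28301171-28301420, plus), are shown beside that of HMGCS1 (chr16:27957262-27957511, minus). All are written 5′ to 3′ toward the start, with the sterol regulatory element in capitals.
APOA1: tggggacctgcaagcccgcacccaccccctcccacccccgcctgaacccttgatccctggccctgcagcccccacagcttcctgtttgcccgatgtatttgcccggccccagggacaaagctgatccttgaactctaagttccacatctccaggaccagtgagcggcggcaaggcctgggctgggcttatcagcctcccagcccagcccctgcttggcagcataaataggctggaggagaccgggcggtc
SCARB1: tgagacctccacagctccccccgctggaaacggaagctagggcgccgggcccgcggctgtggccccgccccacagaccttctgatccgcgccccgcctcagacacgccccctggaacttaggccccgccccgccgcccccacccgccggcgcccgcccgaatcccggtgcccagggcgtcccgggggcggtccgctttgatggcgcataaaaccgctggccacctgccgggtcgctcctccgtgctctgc
HMGCS1: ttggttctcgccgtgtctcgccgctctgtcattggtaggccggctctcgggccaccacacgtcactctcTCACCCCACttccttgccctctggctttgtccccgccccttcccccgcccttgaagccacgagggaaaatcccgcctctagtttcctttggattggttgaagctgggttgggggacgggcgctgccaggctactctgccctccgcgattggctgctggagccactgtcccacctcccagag
The element began at position -181 from the start of HMGCS1, and the APOA1 and SCARB1 windows hold no capitals.

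Levels of the 10 genes spanned a wide range. APOA1 was at 4091 CPM (4079–4103) in follicle 1 and 1502 (1495–1509) in follicle 2, which put it at rank 20 of 15601 detected genes and at rank 110 of 15772. SCARB1 was at 1406 CPM (1399–1413) and 1462 (1455–1470), ranks 113 and 112. These 2 genes of high-density lipoprotein uptake stood far above the rest.

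PLIN2 came next, at 91.5 and 121 CPM in follicles 1 and 2. NPC1 was at 46.2 and 43.9, NPC2 at 27.2 and 44.1, APOD at 39.3 and 8.15, and APOE at 20.05 and 21.0 CPM. The efflux pumps and CYP27A1 were barely detected. ABCA1 had 130 and 149 UMIs in all (1.17 and 1.37 CPM), ABCG1 had 8 and 61 (0.0719 and 0.560 CPM), and CYP27A1 had 27 and 57 (0.243 and 0.523 CPM). In follicle 1 the intervals of neighbours in this order were apart for each gene, and in follicle 2 those of NPC1 (42.7–45.2) and NPC2 (42.9–45.4) overlapped, as did those of ABCG1 (0.428–0.719) and CYP27A1 (0.396–0.678).

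To see how the genes varied between cells, cells were clustered after the 10 genes and 112 further genes of lipid handling had been left out of the genes that define clusters. Cluster 0 held 67.2% of the cells of follicle 1 and 73.8% of those of follicle 2 and was led by TGFB3, ENPP2 and IL33. Cluster 1 held 25.6% and 13.6% and was led by ARPP21, ALPK2 and SHAS2. Its cells carried more VCAN, a matrix proteoglycan of the expanding cumulus, at 5664 and 1046 CPM against 683 and 278 in cluster 0. Cluster 1 was unlike in the 2 follicles. Its 6 cumulus markers, VCAN among them, summed to 8598 CPM in follicle 1 and 1443 in follicle 2, and its 7 mural markers to 1363 and 4779. Whether it is 1 class of cells in both was not tested. Cluster 3, led by TOP2A and other genes of cell division, held 459 and 121 cells, and cluster 4, led by ALDH1A2 and SLC24A1, held 181 and 168.

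Cluster 2 held 665 cells of follicle 2 (8.48%) and 1 cell of follicle 1 and was led by CCL26, CEMIP and CCDC80. Its median depth was 6416 UMIs per cell against 14226 in cluster 0. The summed granulosa markers were at 5025 CPM, with all 7 detected, against 27195 in cluster 0, and INHA, a subunit of inhibin, was at 2181 against 24597 CPM. Neither level was above that of leukocyte-like barcodes of follicle 2, which were picked by leukocyte markers. The 9 kept ones were at 5862 CPM for the granulosa markers, and all 25 were at 6557 CPM (6166–6966) for INHA. In 35 barcodes of follicle 2 with over 50% of their UMIs from the haemoglobin gene HBB, INHA was lower than in cluster 2, at 1805 CPM (1594–2037). INHA made up most of the granulosa sum of cluster 0, so the 2 levels are largely 1 marker. CYP11A1, another of the 7, was higher in cluster 2 than in cluster 0, as given below. In cluster 2 the 10 leukocyte markers summed to 8.74 CPM, 6 of them detected. Among its 10 leading genes were MYH11 and ACTA2, of the contractile fibres of smooth muscle, at 105 and 62.4 CPM against 0.770 and 0.520 in all other cells. The 8 markers of theca or stroma, ACTA2 among them, were all detected and summed to 337 CPM against 567 in cluster 0, and 4 endothelial markers summed to 25.8 against 11.2. The theca or stroma sum can rest on 1 marker: in the 9 kept leukocyte-like barcodes 1 of the 8 was detected and the sum was 716 CPM. The lower sum in cluster 2 thus does not hold for each marker, ACTA2 being higher there. Cluster 2 was left unnamed, and since it comes from 1 library, that library and the cell type cannot be told apart. Clusters 1 and 2 are used below to say in which cells each gene was high or low.

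**Figure D1:**
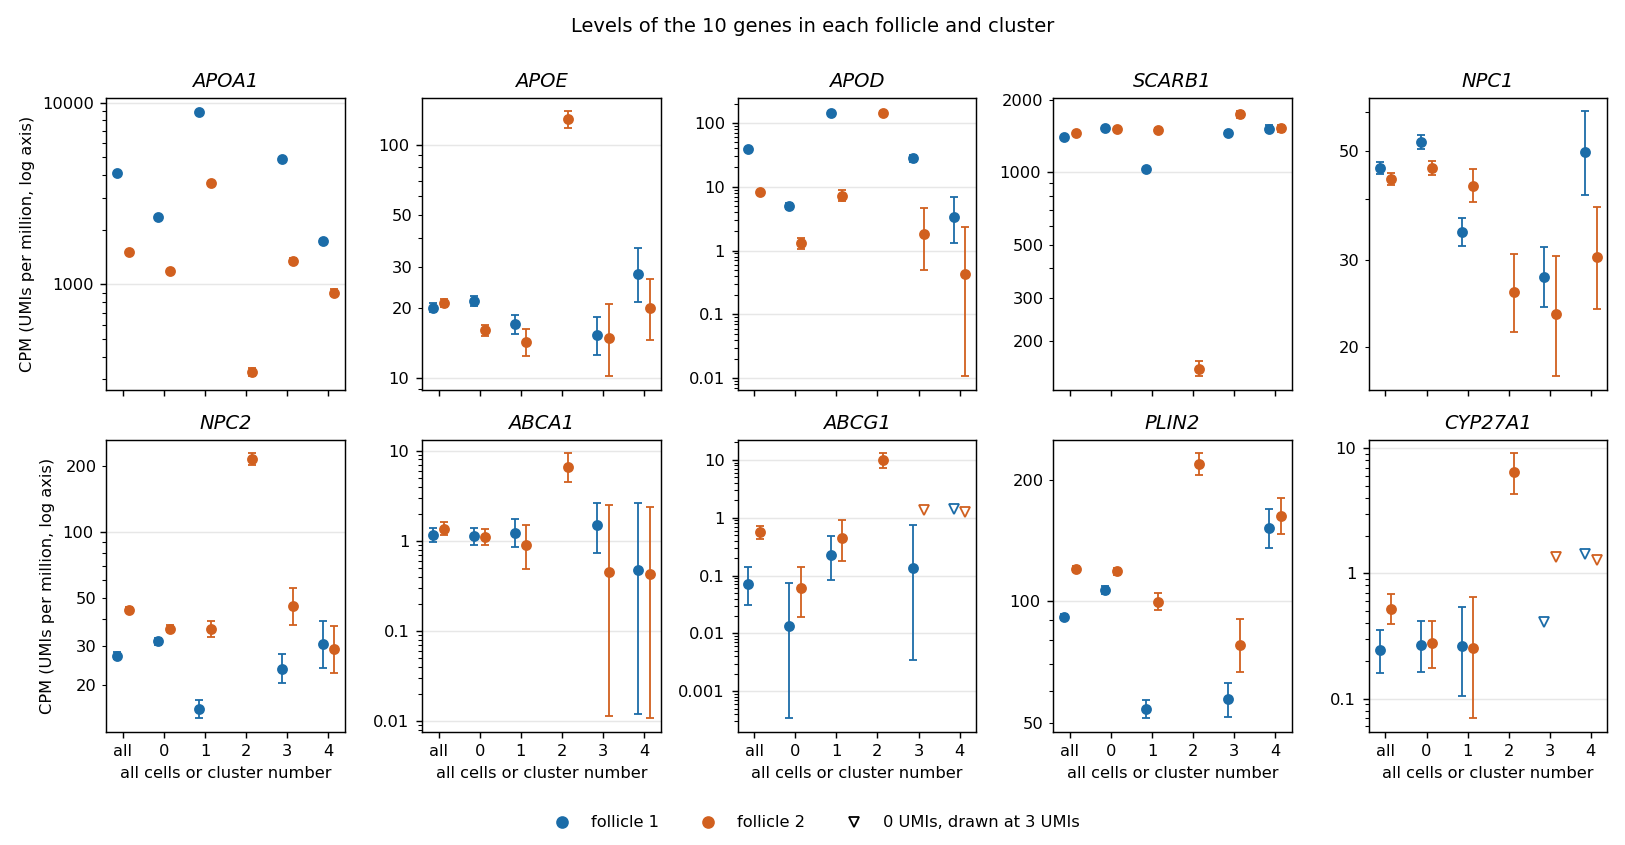
Level of each of the 10 genes in CPM on a log axis (vertical, its own range in each panel) in all kept cells and in clusters 0 to 4 (horizontal), with 95% exact Poisson intervals as bars and a triangle at 3 UMIs where no UMI was counted. APOA1 was highest in cluster 1 of both follicles (8955 and 3622 CPM), and APOE, NPC2, PLIN2, ABCA1, ABCG1 and CYP27A1 were highest in cluster 2 of follicle 2.

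APOA1, the protein of high-density lipoprotein, was the gene that varied most between cells among the abundant ones. In cluster 0 it was at 2339 CPM in follicle 1 and 1193 in follicle 2, and in cluster 1 at 8955 and 3622, so that cluster 1 was higher by a ratio of 3.83 (3.81–3.85) and 3.04. Cluster 3 was at 4925 and 1343 CPM and cluster 4 at 1724 and 901. At least 1 UMI was found in 99.1% and 90.2% of all cells. Among leukocyte-like barcodes of follicle 2, which should lack the transcript, 10 of 25 had 1, at a median depth of 4143 UMIs and 332 CPM (248–434). In follicle 1, all 5 such barcodes had 1, at 13162 UMIs and 613 CPM (494–752), as did 87.5% of 8 barcodes with over 50% of their UMIs from the haemoglobin gene HBB, at 470 CPM (243–821). Detection of APOA1 in follicle 1 is thus not above these barcodes, while the level over all cells is.

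Within cluster 0 the spread of APOA1 was broad. Per 10000 UMIs of the cell, the median was 7.87 in follicle 1 and 3.24 in follicle 2, while the 10th and 90th percentiles were 2.02 and 61.3 in follicle 1 and 0.556 and 29.4 in follicle 2. The median of follicle 2 was about the level of its leukocyte-like barcodes (332 CPM). That of follicle 1 was slightly above theirs (613 CPM). The part of free RNA in cells at or below the median was not tested. The 630 cells richest in APOA1, of 6292 in cluster 0 of follicle 1, held 53.7% of its UMIs there, and 579 of 5785 cells held 61.1% in follicle 2. For SCARB1 the same numbers of cells, chosen by SCARB1, held 21.5% and 20.9%. The RNA of APOA1 was concentrated in fewer cells of cluster 0 than that of SCARB1 in both follicles.

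**Figure D2:**
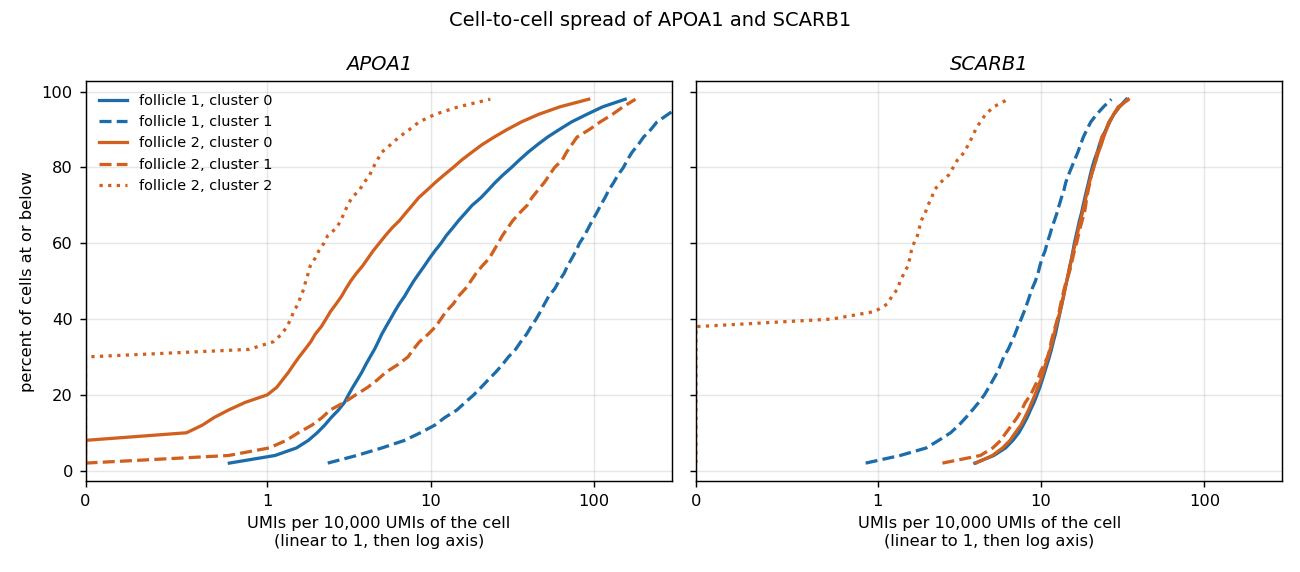
Percent of cells (vertical) at or below a level in UMIs per 10000 UMIs of the cell (horizontal, linear up to 1 and then logarithmic), for APOA1 (left) and SCARB1 (right) in clusters 0 and 1 of both follicles and cluster 2 of follicle 2. The APOA1 curves are shallow and apart, with medians of 7.87 and 3.24 in cluster 0 and 60.9 and 17.6 in cluster 1, while the SCARB1 curves of cluster 0 lie on each other at a median of 14.4.

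The other lipid carriers were low in most cells. APOD in follicle 1 was at 5.02 CPM in cluster 0 and 141 (136–145) in cluster 1, a ratio of 28.0, with a UMI in 42.9% of the cells of cluster 1. In cluster 1 of follicle 2, whose marker levels were unlike those of follicle 1, it was at 7.27 CPM (5.996–8.73), with a UMI in 6.36% of cells. The ratio of follicle 2 to follicle 1 in cluster 1 was 0.0516 (0.0425–0.0622). In follicle 2 most APOD lay in cluster 2, at 141 CPM and in 42.4% of cells. No APOD was counted in the 25 leukocyte-like barcodes of that follicle.

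APOE, an acceptor of effluxed cholesterol, stayed between 14.3 and 28.0 CPM in clusters 0, 1, 3 and 4 of both follicles and was at 128 CPM (118–139) in cluster 2. A UMI of APOE was found in 28.4% of the cells of cluster 2, and 10 cells with at least 10 UMIs each held 24.8% of its UMIs there. Leukocyte-like barcodes of the same follicle were at 213 CPM, above cluster 2, though their intervals were wide (147–297). A UMI of APOE was found in 20% of these 25, and the 16 outside the barcode limits were at 57.9 CPM (15.8–148). Whether macrophage RNA had a part in the APOE of cluster 2 was not tested, and the leukocyte markers there summed to 8.74 CPM against 5.28 in cluster 0.

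SCARB1, the receptor of high-density lipoprotein, was steady. It was at 1531 CPM in cluster 0 of follicle 1 and 1519 in follicle 2, with medians of 14.4 per 10000 UMIs of the cell in both, and a UMI was found in 99.9% and 99.8% of those cells. Clusters 3 and 4 lay between 1453 and 1741 CPM. Cluster 1 was at 1036 CPM (1023–1048) in follicle 1 and 1505 (1486–1524) in follicle 2, which was 0.677 and 0.991 of the level in cluster 0. In cluster 2 it was at 153 CPM (142–165), with a UMI in 60.8% of cells. The leukocyte-like barcodes of follicle 2 were above that level, at 432 CPM (336–546), with a UMI in 56.0% of them. The part of free RNA in the SCARB1 of cluster 2 was not tested.

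APOA1 in cluster 2 was at 328 CPM (312–345), within the interval of the leukocyte-like barcodes. Relative to INHA, the 2 were unlike: APOA1 had 150 UMIs per 1000 INHA UMIs in cluster 2, against 48.5 in cluster 0 and 50.6 in leukocyte-like barcodes. For SCARB1 these values were 70.2, 61.7 and 65.8. The 3 ratios lay close together for SCARB1, while for APOA1 that of cluster 2 lay above the other 2. The 35 barcodes of follicle 2 with over 50% of their UMIs from HBB were below cluster 2 in both genes. They were at 89.2 CPM (47.5–153) for APOA1 and 48.0 (19.3–99.0) for SCARB1, HBB taking most of their UMIs. Per 1000 INHA UMIs they held 49.4 and 26.6, on 13 and 7 UMIs, so the SCARB1 ratio was not alike in all such barcodes. The part of free RNA in the APOA1 of cluster 2 was not tested further.

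The lysosomal pair moved opposite ways in cluster 2, while both were lower in cluster 1 of follicle 1 than in cluster 0. NPC1, the membrane protein, was at 52.1 CPM in cluster 0 of follicle 1 and 46.2 in follicle 2, at 34.3 and 42.5 in cluster 1, and at 25.8 (21.4–30.8) in cluster 2. NPC2, the soluble partner, was at 31.6 and 36.1 CPM in cluster 0, at 15.5 (14.1–17.1) and 35.9 (33.0–39.0) in cluster 1, and at 214 (201–228) in cluster 2. In cluster 2 the ratio to cluster 0 was 0.559 for NPC1 and 5.94 for NPC2. NPC2 was found there in 54.6% of cells, against 37.9% in cluster 0, whose cells were deeper.

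PLIN2, the coat of lipid droplets, was at 107 CPM in cluster 0 of follicle 1 and 119 in follicle 2. In cluster 1 it was at 54.0 (51.3–56.9) and 99.9 (95.03–105), which was 0.507 and 0.842 of cluster 0. It was higher in cluster 4, at 152 (136–170) and 163 (147–180), and highest in cluster 2, at 219 (206–233). A UMI was found in 51.8% and 61.6% of all cells.

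ABCA1 was at 1.13 and 1.11 CPM in cluster 0 and at 6.61 (4.49–9.38) in cluster 2, where 31 of the 149 UMIs of follicle 2 were counted. Of the 61 UMIs of ABCG1 in follicle 2, 46 came from cluster 2, whose cells held 9.81 CPM (7.18–13.1) against 0.0599 in cluster 0. CYP27A1 was alike, with 30 of 57 UMIs in cluster 2 and 6.397 CPM (4.32–9.13) against 0.275. Even in cluster 2, ABCG1 was found in 5.71% of cells and CYP27A1 in 3.91%. In cluster 4 neither had a UMI in either follicle, which allows up to 1.42 and 1.27 CPM.

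Summed together, the leukocyte-like barcodes of follicle 2 were level with or above cluster 2 in several of these genes. Leukocytes include macrophages, which are known to store and export cholesterol. In the 25 leukocyte-like barcodes of follicle 2, NPC2 was at 282 CPM (205–377), PLIN2 at 269 (195–362), ABCG1 at 18.8 (3.87–54.9) and CYP27A1 at 6.26 (0.158–34.9), and these intervals hold the levels of cluster 2. ABCA1 was at 56.3 CPM (25.7–107) there, above cluster 2. These levels of ABCA1, ABCG1 and CYP27A1 rest on 9, 3 and 1 UMIs, found in 12%, 4% and 4% of the barcodes. The 16 of the 25 that lay outside the barcode limits were lower than cluster 2 in NPC2, at 72.4 CPM (23.5–169), and in PLIN2, at 57.9 (15.8–148). The part of leukocyte RNA in these genes of cluster 2 was not tested.

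Between the follicles, 3 of the 7 members with at least 200 UMIs in a follicle lay beyond 1.5-fold over all cells: APOA1 and APOD were lower in follicle 2 and NPC2 was higher. Of 10049 genes tested, 5.65% lay beyond that fold, 1.8% higher and 3.85% lower. The ratio of follicle 2 to follicle 1 was 0.367 (0.365–0.369) for APOA1, 0.207 (0.193–0.223) for APOD and 1.62 (1.55–1.70) for NPC2. PLIN2 was at 1.32 (1.28–1.35), SCARB1 at 1.04 (1.03–1.05), APOE at 1.05 (0.986–1.11) and NPC1 at 0.950 (0.914–0.989).

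The call of NPC2 past 1.5-fold depended on cluster 2, though NPC2 stayed higher in follicle 2 without it. Without that cluster the log2 ratio of NPC2 was 0.42 and no longer beyond 1.5-fold, and within cluster 0 the ratio was 1.14 (1.08–1.21). APOA1 and APOD were lower in follicle 2 within cluster 0, at 0.510 (0.506–0.514) and 0.258 (0.206–0.320), where 1.83% of 9434 genes lay beyond 1.5-fold and 1.49% lay lower. Cluster 1 gave 0.405 for APOA1, cluster 3 gave 0.273, with 6.13% of its genes lower past 1.5-fold, and cluster 4 gave 0.522, with 0.719% lower. APOA1 was thus lower in follicle 2 in each of the 4. It was also lower in the leukocyte-like barcodes of follicle 2 than in those of follicle 1, at 332 against 613 CPM. The part of free RNA in these ratios was not tested. When follicle 2 was given the cluster shares of follicle 1 over clusters 0, 1, 3 and 4, the ratio of APOA1 went from 0.379 to 0.435 and that of APOD from 0.0556 to 0.0700.

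Cluster 1 differed more widely between the follicles, with 13.7% of 7679 genes beyond 1.5-fold. There APOA1 and APOD were lower in follicle 2 and NPC2 and PLIN2 were higher, by 2.31 (2.03–2.63) and 1.85 (1.72–1.99), while SCARB1 was at 1.45 (1.43–1.48). Against cluster 0 of its own follicle, cluster 1 of follicle 1 was higher in APOA1 and APOD and lower in NPC1, NPC2 and PLIN2, where 20% of 9350 genes lay beyond 1.5-fold. In follicle 2, APOA1 was the only 1 of 6 members beyond it, with 5.51% of 9358 genes. The differences between these 2 results were not tested.

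**Figure D3:**
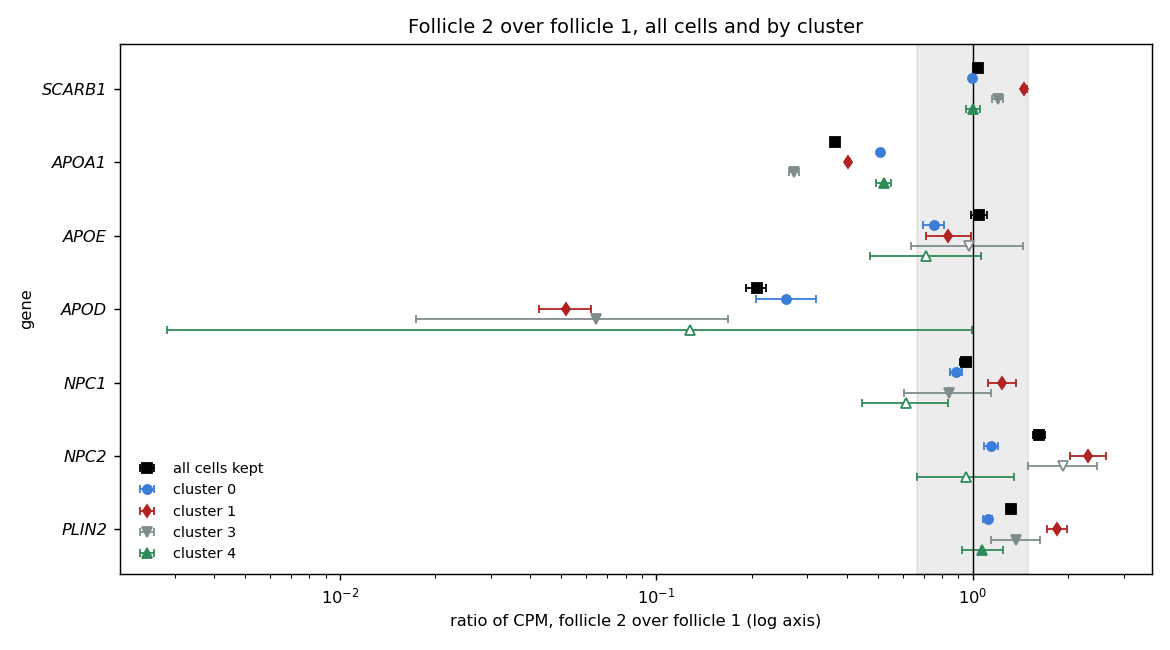
Ratio of CPM in follicle 2 to follicle 1 (horizontal, log axis) for the 7 members with at least 200 UMIs (vertical), in all kept cells and in clusters 0, 1, 3 and 4, with 95% exact intervals as bars, open symbols below 200 UMIs and a grey band for changes under 1.5-fold. APOA1 lies left of the band in each group (0.273 to 0.522 in the clusters), SCARB1 lies inside it in each, and NPC2 leaves it over all cells (1.62) but not in cluster 0 (1.14).

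Cluster 2 stood apart from cluster 0 in every member with enough UMIs. APOE, APOD, NPC2 and PLIN2 were higher, by 7.99, 109 (88.8–135), 5.94 and 1.85, and APOA1, SCARB1 and NPC1 were lower, at 0.275, 0.101 and 0.559. This makes 7 of 7, against 53.4% of 9384 genes, 38.3% higher and 15.1% lower, with a median log2 ratio of 0.35 over all genes. Below 200 UMIs, ABCA1 was higher by 5.93, ABCG1 by 164 (65.3–528, on 46 against 5 UMIs) and CYP27A1 by 23.2 (13.04–41.9).

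Other genes of lipid handling divided in cluster 2 in the same comparison. All 19 tested genes of sterol synthesis were lower, from HSD17B7 at 0.136 to SC5D at 0.422, and so were INSIG1 at 0.162, SREBF2 at 0.377 and SREBF1 at 0.362. Of 10 tested genes listed under lipoprotein uptake, 4 were lower, among them VLDLR, LRP8 at 0.115 and OLR1. OLR1 had no UMI, which allows up to 0.640 CPM. Another 5 were higher, among them SORL1, SCARB2, LRP1 and SORT1, by 6.31, 3.91, 2.18 and 2.07. SCARB2 and SORT1 act largely inside the cell, so the count does not measure uptake alone. STAR, which carries cholesterol into mitochondria, was at 0.111. INHA was at 0.0887 in this comparison, and the part of free RNA in the genes that were lower was not tested. GRAMD1B, a sterol transfer protein, was higher by 6.13, CLU, a secreted lipid carrier, by 4.92, G0S2, an inhibitor of droplet lipolysis, by 5.26, and the lysosomal membrane protein LAMP2 by 2.62.

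Between the follicles over all cells, 2 of 77 tested genes of the wider lipid list were higher in follicle 2 and 3 were lower, which was close to the 5.65% of all genes. CLU was at 1.57 and MYLIP, a ubiquitin ligase that acts on lipoprotein receptors, at 9.61 (6.45–14.9), while G0S2 was at 0.348, OLR1 at 0.548 and STAB1 at 0.616. Both calls as higher depended on cluster 2, which held 3739 of the 19642 CLU UMIs and 183 of the 254 MYLIP UMIs of follicle 2. Without it, CLU was at 1.33 (1.30–1.36) and MYLIP at 2.81 (1.78–4.55) on 71 against 27 UMIs, too few to be counted, so that 0 genes of the list were higher and 4 were lower. Of 76 such genes tested within cluster 0, 0 were higher and 5 were lower, led by STAB1 at 0.549, where 1.49% of all genes were lower. The lysosomal lipase LIPA was at 34.8 and 36.1 CPM over all cells of follicles 1 and 2, and the esterifying enzyme SOAT1 was at 20.3 and 17.2. NR1H2 was at 35.2 and 35.5 CPM, and NR1H3, its partner LXR gene, had 30 and 21 UMIs in all.

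Across cells the 10 genes were hardly correlated with each other. Pearson's r was computed per follicle on log values of UMIs per 10000, over 9362 and 7843 cells that share a library and its range of depths, and is given as a description. None of the 45 pairs reached 0.2 in both follicles. The strongest negative pair was APOD with SCARB1, at -0.30 and -0.42, which was -0.01 and 0.01 within cluster 0, -0.27 and -0.24 within cluster 1, and -0.08 in follicle 2 without cluster 2. APOA1 with APOD was at 0.25 in follicle 1 and -0.07 in follicle 2. Within cluster 0 no pair lay beyond 0.08 in either direction, and the receptor SCARB1 and its ligand APOA1 were at 0.02 in both follicles.

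**Figure D4:**
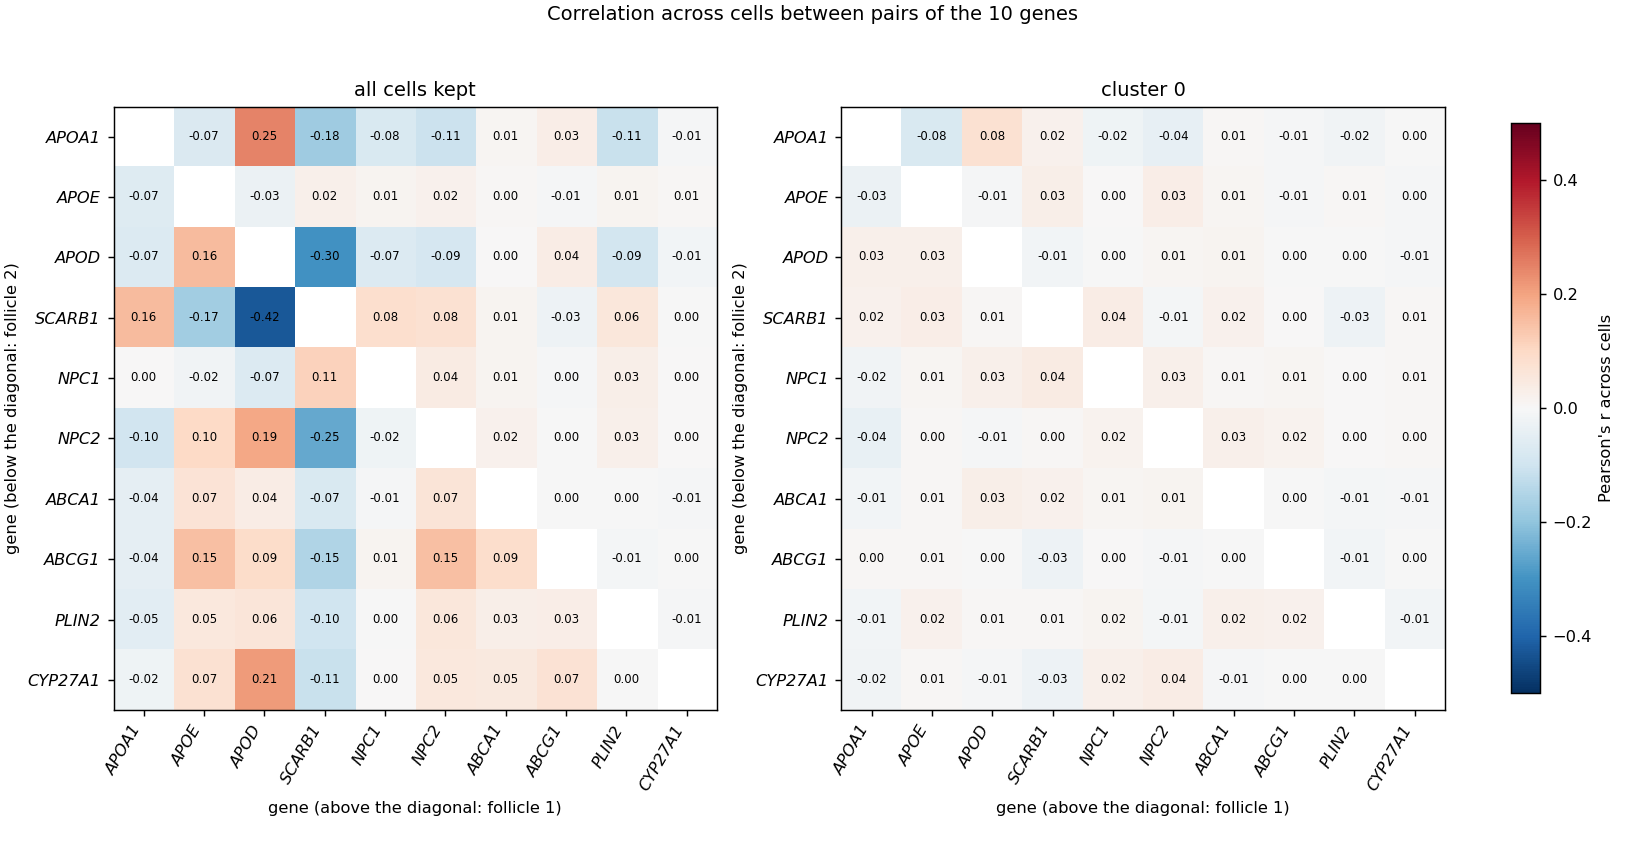
Pearson's r across cells for each pair of the 10 genes, in all kept cells (left) and in cluster 0 (right), with follicle 1 above the diagonal and follicle 2 below it, and the r printed in each square. APOD with SCARB1 is the darkest square over all cells (-0.30 and -0.42) and is pale within cluster 0 (-0.01 and 0.01).

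Detection in the same cell differed between pairs in cluster 2, where 576 cells had enough UMIs to be thinned to 5000. APOD was found in 40.8% (32.7–49.4) of the cells with APOE and in 35.5% of those without, and PLIN2 in 57.04% (50.9–63.0) of the cells with NPC2 and in 52.3% without. The 26 cells with ABCG1 had NPC2 in 73.1% (52.2–88.4), against 45.6% (41.4–49.9) of the others. ABCA1 was found in 7.04% (3.43–12.6) of the cells with APOE and in 1.84% (0.799–3.60) of those without. With APOD it went the other way, at 1.42% (0.293–4.08) against 4.12% (2.32–6.71). PLIN2 was correlated with CYP11A1, the enzyme that starts steroid synthesis from cholesterol, at 0.29 over the 665 cells of cluster 2, and at -0.06 and -0.05 in cluster 0 of follicles 1 and 2. CYP11A1 itself was at 1963 CPM in cluster 2, against 1685 in cluster 0.

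Outside the 10, APOA1 and SCARB1 each followed other genes. Ranked by the lower r of the 2 follicles over 7253 genes, APOA1 was most like RARRES1 (0.36 and 0.37), MRO (0.42 and 0.32) and ENSSSCG00000011147 (0.44 and 0.31), and it was at 0.59 and 0.31 with VCAN. Within cluster 0, APOA1 with VCAN was at 0.45 and 0.31, and with IL33 at -0.24 and -0.12. SCARB1 was most like INHA (0.45 and 0.71), NPY1R (0.34 and 0.51) and AMIGO2 (0.33 and 0.56), and with INHA it was at 0.14 and 0.17 within cluster 0 and at 0.51 and 0.41 within cluster 1.

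APOD was most like ENSSSCG00000031838 (0.31 and 0.33), THBS1 (0.38 and 0.31) and S1PR1 (0.36 and 0.29). For PLIN2 the only gene at 0.2 or more in both follicles was DENND4C (0.26 and 0.21). DENND4C lies on the minus strand at chr1:203449832-203601298, 82569 bases from PLIN2 and with 0 annotated genes between them. APOE, NPC1, NPC2, ABCA1, ABCG1 and CYP27A1 had no gene at 0.2 in both.

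To set the genes against the cell's own cholesterol synthesis, the cells of each cluster were ordered by the summed CPM of the sterol synthesis genes, which do not include STAR, and divided into 5 equal groups. Within cluster 0 the sum ran from 971 CPM in the lowest group to 7833 in the highest in follicle 1 and from 667 to 6662 in follicle 2, while the median depth went from 10944 to 11528.5 UMIs and from 13768 to 14753. STAR rose by 5.31 and 4.87 from the lowest to the highest group.

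APOA1 in cluster 0 of follicle 1 was at 1472 CPM in the lowest group, 2961 in the next to highest and 2814 in the highest, a ratio of 1.91 (1.88–1.94) between the ends. In follicle 2 it rose at each step, from 680 to 1728 CPM, a ratio of 2.54 (2.49–2.60). In cluster 1 the order was not the same: APOA1 fell from 10862 to 8064 CPM in follicle 1 (0.742) and was at 0.920 in follicle 2. Across single cells of cluster 0, APOA1 with the sterol sum was at 0.18 and 0.20. Over all cells it was at -0.035 in follicle 1 and 0.30 in follicle 2, and no member reached 0.2 in both. Along the same groups of cluster 0, VCAN rose by 2.18 and 2.79 in follicles 1 and 2, while IL33 fell, at ratios of 0.626 and 0.631. Whether APOA1 followed the sterol sum apart from VCAN and IL33 was not tested.

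SCARB1 changed little along the same order in cluster 0, at ratios of 0.975 (0.957–0.994) and 0.902 (0.886–0.918), as did PLIN2 at 0.879 and 0.899. NPC2 rose at each step in both follicles, by 1.38 (1.21–1.58) and 1.21 (1.08–1.36). ABCA1 ran the other way, from 27 to 10 UMIs in follicle 1 and from 24 to 12 in follicle 2, at ratios of 0.349 (0.151–0.745) and 0.463 (0.211–0.964). On so few UMIs the size of that difference is poorly fixed.

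**Figure D5:**
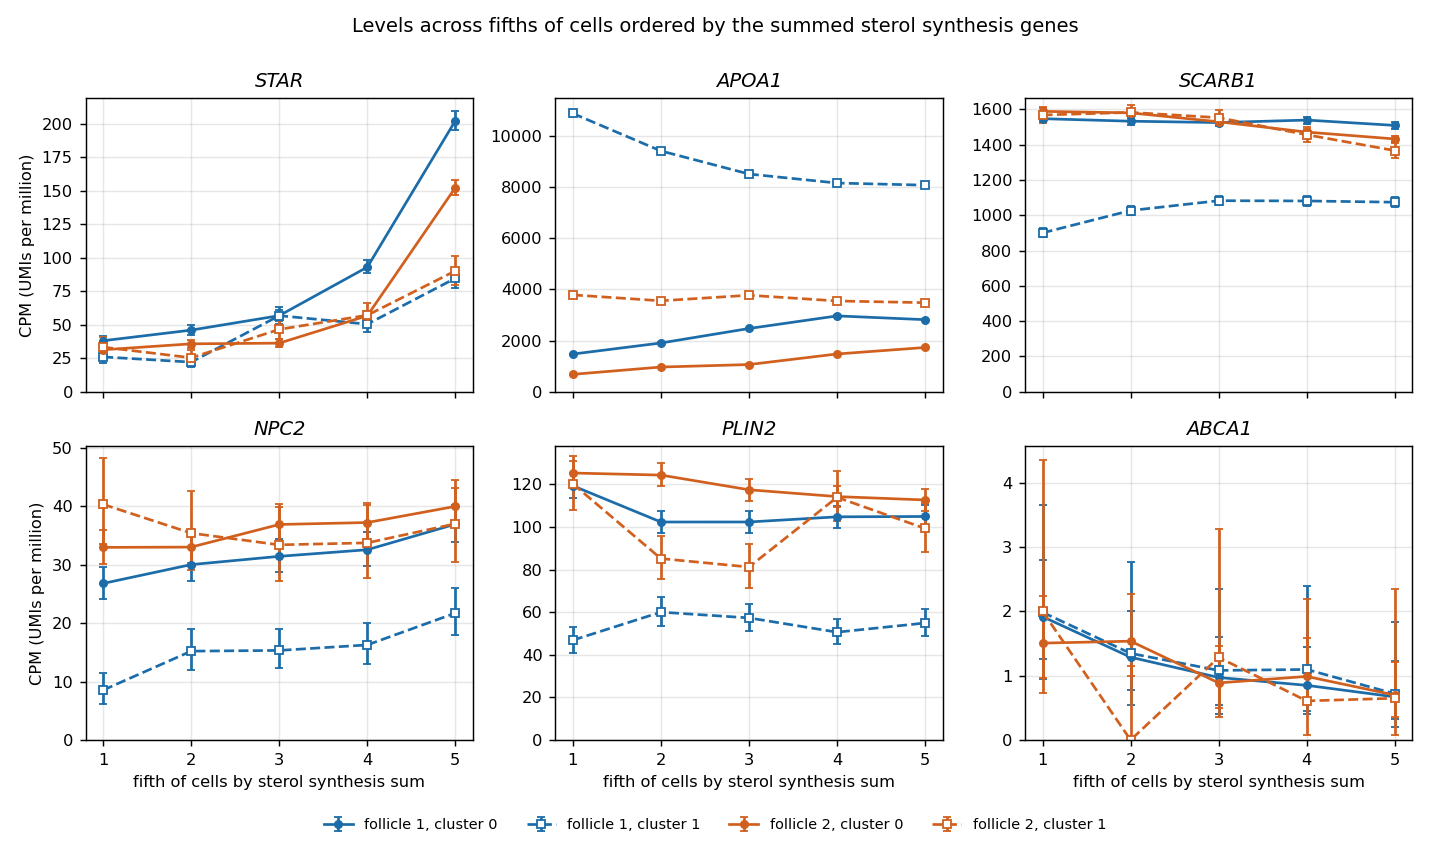
Level in CPM (vertical, from 0) of STAR, APOA1, SCARB1, NPC2, PLIN2 and ABCA1 in 5 equal groups of cells ordered from the lowest to the highest sum of sterol synthesis genes (horizontal), for clusters 0 and 1 of both follicles, with 95% exact Poisson intervals as bars. STAR is higher in the highest than in the lowest group in each line, APOA1 rises in cluster 0 of follicle 2 (680 to 1728 CPM) and falls in cluster 1 of follicle 1 (10862 to 8064 CPM), and ABCA1 has few UMIs at any point.

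Cluster 0 could be divided further into 2 subclusters. APOA1 was lower in subcluster 1, the smaller, in follicle 1, at 0.577 (0.542–0.613), and APOE was higher and NPC1 lower in follicle 2, at 1.72 and 0.572, where 29.5% and 35.3% of genes lay beyond 1.5-fold. No member was beyond that fold the same way in both follicles.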

How the data were processed

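RNA was measured in single somatic cells by the 10x Genomics 3′ assay, each of the 2 antral follicles being 1 library. The authors deposited counts of UMIs for each gene in each called barcode, made with Cell Ranger 6.0.2 on Sscrofa11.1, per the file headers and the study's methods, without a further filter or normalization. A read's UMI is counted once, so amplification copies are not counted, while free RNA and doublets remain in these values.

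Barcodes with 2000 to 5000 genes and under 7% mitochondrial UMIs were kept, and doublets were not removed. The members and gene lists were chosen with earlier results of these data known. Cells were normalized, integrated by anchors over 2000 variable genes and clustered with Seurat 5.3.0 (R 4.3.3, Matrix 1.6.5) at the lowest resolution on a grid that gave 6 clusters (0.18). The 10 members and the lipid list of 119 genes, 112 of them in the gene list, were left out of the variable genes. Leukocyte-like barcodes had at least 10 UMIs over at least 3 leukocyte markers, a rule made after the data were seen.

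UMIs were summed over cells in Python 3.11.15 (numpy 2.4.6, pandas 2.3.3, scipy 1.17.1, scanpy 1.11.5, matplotlib 3.10.9). CPM have exact Poisson intervals, shares Clopper-Pearson intervals and ratios exact conditional intervals, at 95%. A gene was counted as higher or lower past 1.5-fold if 1 side had at least 200 UMIs. The scripts were tested on simulated data. Alternatives were Scrublet, limits of 500 and 6000 genes, a limit of 10% mitochondrial UMIs, every barcode unfiltered, the mean of per-cell CPM, totals that leave out mitochondrial and ribosomal protein genes, thinning to 5000 UMIs, Spearman's correlation, the largest cluster only, 20 components and no integration. Leaving out cluster 2 was added after the data were seen.

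Named beside the members were the 3 largest ratios each way in the lipid list, preset partners such as STAR, the 3 genes most correlated with each member at 0.2 or more in both follicles among genes found in at least 10% of cells, and the 3 leading genes of a cluster. CYP11A1, NR1H2, HSD17B7, SC5D, SCARB2, LRP1, SORT1, CLU, MYH11, ACTA2 and LAMP2 were named in cluster 2 or beside their partners after their values were seen. Promoter and gene positions are from RefSeq on Sscrofa11.1, in which all 10 members were matched by symbol. Some genes and windows that these rules name are not reported here. Protein sequences were not used here.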

Additional observations from a re-analysis of the deposited data

Results flagged for a closer look

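The genes of sterol synthesis moved opposite ways in cluster 1 of the 2 follicles, which is the difference between groups picked out here. Relative to cluster 0 of the same follicle, the median log2 ratio of the 19 tested genes was -0.61 in follicle 1, where 13 were lower and 1 was higher past 1.5-fold, and 0.68 in follicle 2, where 12 were higher and 0 were lower. Past 1.5-fold lay 20% and 5.51% of all genes in these comparisons. The medians over all genes tested were -0.09 and -0.0041 in the same comparisons. The difference between the follicles was not tested, since each is 1 library. Cluster 1 was also unlike in its markers, with cumulus markers summed to 8598 CPM in follicle 1 and 1443 in follicle 2, and mural markers to 1363 and 4779. Cluster 1 of follicle 1 was also lower than cluster 0 in NPC1, NPC2 and PLIN2, at 0.658, 0.492 and 0.507, while in follicle 2 NPC2 and PLIN2 were at 0.995 and 0.842. APOA1 was higher in cluster 1 of both.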

How the results depend on the processing

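Of the counts of members, list genes and pairs, 36 recounts under an alternative stayed within 1.5 times of the count reported and 2 did not. With cells thinned to 5000 UMIs, 3 genes of the wider lipid list lay past 1.5-fold between follicles in place of 5, 1 higher and 2 lower. With no integration, 1 member, APOA1, lay past 1.5-fold the same way in both follicles between the 2 subclusters, in place of 0, and was higher in both; the causes were not tested. The direction of 3 correlations turned, all in follicle 2: APOD with SCARB1 was at 0.0051 in the largest cluster only, and SCARB1 with the sterol synthesis sum, 0.30 over all cells, was at -0.0792 in the largest cluster only and at -0.0499 without cluster 2. Of the levels, 95 stayed within their counting interval under an alternative and 65 did not, and of the log2 ratios between follicles 90 stayed on the same side of 1.5-fold and 1 did not. APOA1 and APOD were lower in follicle 2 in each alternative run. The log2 ratio of APOA1 in the largest cluster was -0.97, and -0.64 with no integration. Cluster 2 decided the call of NPC2: without it 2 members, APOA1 and APOD, were past 1.5-fold over all cells. Scrublet removed 646 and 541 cells.

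No paired analysis was possible because each follicle is 1 library, so the groups share fewer than 2 replicate numbers. Depth limits ABCG1 and CYP27A1, with 8 to 61 UMIs per follicle, to values summed over cells, and for ABCA1, with 130 and 149 UMIs, differences between clusters 0, 1, 3 and 4 were not detectable. With 1 library per follicle, neither the spread between libraries of a follicle nor that between follicles of a kind is known.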
